A study of Rattus norvegicus with 27 samples.

Results

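Neuropeptide genes were examined in the medial prefrontal cortex (mPFC), across 27 male rats of the Wistar strain. The 10 genes were chosen by symbol: Npy, Cck, Vip, Cort, Sst, Crh, Tac1, Pdyn, Pnoc and Cartpt, of the 36865 rows in the table of gene counts. All 10 had a row, and 9 had a mean count of at least 10, as did 11730 rows in all. The exception was Sst (NCBI gene 24797), the somatostatin gene, whose row held 0 reads in all 27 libraries and is treated here as not counted. The rats were taken as 1 group without a control group. The study's methods name 2 cohorts of such rats. Which cohort a library came from was not available here, so no relation was tested within cohorts. All rats had passed through the elevated plus-maze, light-dark and open field tests. They were selected for sequencing by their composite anxiety scores and sampled at rest 2 weeks after the last test. The sample labels list the treatment as learned helplessness and name acoustic startle and fear conditioning besides the 3 anxiety tests. The rats were adult, with an age of 100 days in the study's methods, and no anxiety score of a single rat was used. Each library is polyA RNA from the mPFC of 1 rat.

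Neuropeptides are cut from larger precursor proteins, packed into dense core vesicles and released to act on G protein-coupled receptors. In the cortex most of them mark classes of GABAergic interneurons. Npy and Sst are found in one broad class, Vip in another, Cort overlaps with somatostatin cells, and Cck is made both by a class of basket cells and by many excitatory neurons. Crh, Tac1, Pdyn and Pnoc are each expressed in subsets of cortical neurons, and Cartpt encodes the precursor of the CART peptides. In homogenised tissue, fewer cells of a type and less RNA per cell cannot be told apart.

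Several neuropeptide genes are textbook targets of cAMP signalling through the element TGACGTCA, so the promoters that hold its core are shown. RefSeq promoters (assembly GRCr8, 250 bases before and 50 from the annotated start) were at hand for 7 of the 10 genes, and those of Cck, Crh and Pnoc were not analysed here. The element TGACGTCA was found in 2 of the 7, Sst and Cartpt, and in 612 of 33469 promoters of this length (1.83%). Its core TGACGT, searched on both strands and contained in the longer element, was in 3 of the 7, adding Vip, and in 7.94% of all promoters. In the sequences, read 5′ to 3′ on the strand of the gene, capitals mark the core or, where both strands hold it, the whole element. Cartpt lies at chr2:32991186-32991485 (minus strand), with the element beginning 142 bases before the annotated start. Vip lies at chr1:44470230-44470529 (plus strand), with the core beginning 97 bases before the start. Sst lies at chr11:90461296-90461595 (plus strand), with the element just after the annotated start. A match describes the letters of the window and was not tested as a binding site.
Cartpt: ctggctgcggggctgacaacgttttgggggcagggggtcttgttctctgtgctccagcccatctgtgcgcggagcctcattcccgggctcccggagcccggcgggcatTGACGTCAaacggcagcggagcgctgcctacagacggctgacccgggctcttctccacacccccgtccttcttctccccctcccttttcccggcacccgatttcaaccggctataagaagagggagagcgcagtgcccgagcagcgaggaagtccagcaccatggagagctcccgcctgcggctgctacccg
Vip: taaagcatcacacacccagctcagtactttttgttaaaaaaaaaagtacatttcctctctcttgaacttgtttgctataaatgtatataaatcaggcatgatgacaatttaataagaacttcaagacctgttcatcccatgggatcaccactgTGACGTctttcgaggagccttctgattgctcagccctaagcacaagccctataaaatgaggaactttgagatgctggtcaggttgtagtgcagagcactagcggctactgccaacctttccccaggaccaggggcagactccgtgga
Sst: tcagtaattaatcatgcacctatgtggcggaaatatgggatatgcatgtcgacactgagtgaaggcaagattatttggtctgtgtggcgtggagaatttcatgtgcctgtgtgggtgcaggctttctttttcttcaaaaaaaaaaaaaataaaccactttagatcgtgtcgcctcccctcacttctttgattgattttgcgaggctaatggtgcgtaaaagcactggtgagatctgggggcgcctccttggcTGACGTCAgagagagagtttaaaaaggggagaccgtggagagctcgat

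Between 4907255 and 12771309 reads were counted on genes per library. The 16 libraries numbered up to 31 held up to 8568317 reads, and the 11 numbered from 32 held at least 9404220. The relations across rats that the results turn on are therefore also given within these 2 ranges of library number, called blocks. Whether the blocks match the study's cohorts was not tested. Libraries 12 and 20 stood apart in 18S ribosomal RNA (19987 and 16899 normalized counts, against 5243 in the next library), and some of the calls given here ended without them. Libraries 3 and 51 stood apart in marker scores (mean z scores of lists of cell type markers, in SD). Library 3 was lowest for GABAergic interneurons (-3.17) and upper-layer excitatory neurons (-3.27) and highest for oligodendrocytes (2.46). Library 51 was highest for striatal projection neurons (3.05, with 1.85 next) and GABAergic interneurons (2.20) and lowest for microglia (-2.15). Levels are reads divided by DESeq2 size factors, called normalized counts. They are not divided by transcript length, so levels are compared between rats and not between genes. As a check of the tissue, the upper-layer excitatory list was counted (median sum of its 8 genes 5499 normalized counts), and the oligodendrocyte list ranged from 19001 to 66330 around a median of 30173. Of the upper-layer genes Cux1 was at 0 in all libraries, as was Dlx6 among the interneuron markers.

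Cartpt set itself apart from the other neuropeptide genes by its spread between rats. Its level was 3.14 normalized counts in the lowest library, 29.5 at the median and 222.4 in the highest, from 2 to 269 reads. Libraries 51 and 9 (222.4 and 208.5) were highest and libraries 15 and 6 (3.14 and 3.46) lowest. In 6 libraries Cartpt reached at least 100 normalized counts, 5 of them in the first block, and in 5 it stayed under 10, so both blocks held high and low libraries. The upper quartile of rats lay 6.10-fold above the lower quartile, and the 2 highest libraries held 28.4% of the summed level. Its SD of log2 values, 1.70, lay at the 99.9th percentile of the 11730 genes, whose median was 0.19, and it was 1.94 within the first block and 1.35 within the second.

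**Figure D1:**
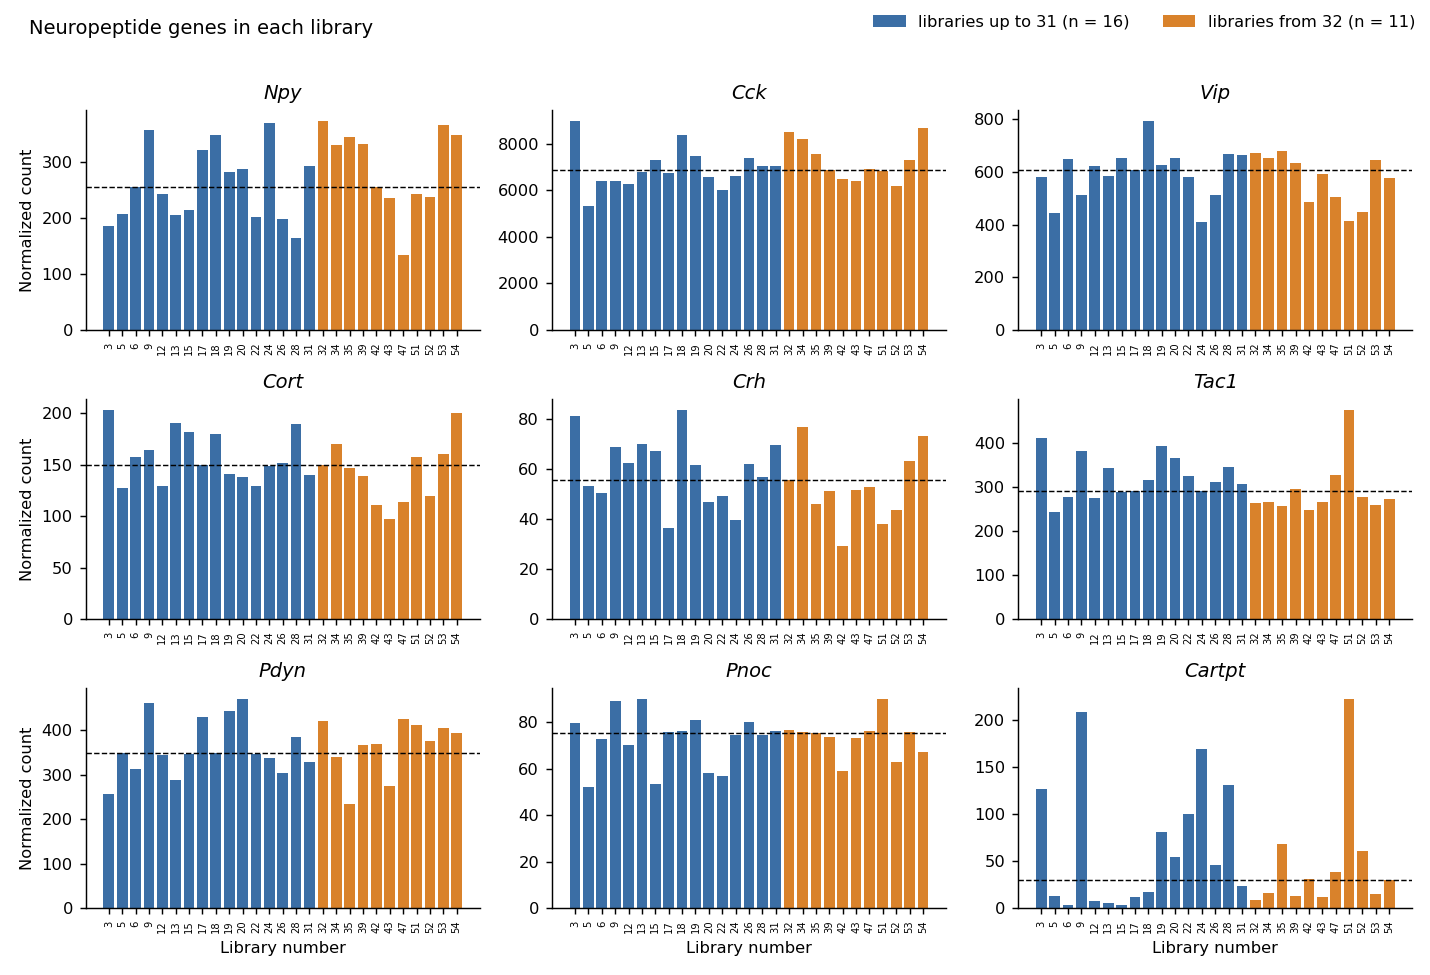
Normalized counts (y axis, from 0) of the 9 counted neuropeptide genes in each of the 27 libraries (x axis, library number). Blue bars are the 16 libraries up to 31, orange bars the 11 from 32, and the dashed line is the median. Cartpt runs from 3.14 to 222.4, while Cck stays between 5299 and 8978.

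Npy, the neuropeptide Y gene, and Crh, the corticotropin-releasing hormone gene, came next in spread. Npy ranged from 133.6 in library 47 through a median of 256.3 to 373.9 normalized counts in library 32, an SD of 0.40 on the log2 scale (85.4th percentile). Crh ranged from 29.0 in library 42 through 55.4 to 83.6 in library 18, an SD of 0.37 (82.3rd percentile). The correlation of both genes across rats was close to 0 (Spearman's rho 0.0073, n = 27), with -0.147 in the libraries up to 31 and 0.418 in those from 32.

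The other interneuron peptides varied less. Vip, the vasoactive intestinal peptide gene, ranged from 408.5 through 606.8 to 794.1 normalized counts (SD of log2 values 0.24). Cort, the cortistatin gene, whose product acts on somatostatin receptors, ranged from 97.2 through 149.7 to 203.4 (SD 0.27). Cck, the cholecystokinin gene, ranged from 5299 through 6867 to 8978 (SD 0.18, 44.9th percentile), and library 3 held the highest level of both Cck and Cort, with library 54 second in both.

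The tachykinin and opioid precursors lay in the same range of spread. Tac1, which encodes substance P, ranged from 242.1 through 290.2 to 474.5 normalized counts (SD of log2 values 0.24), and library 51, the highest, lay clear of library 3 at 409.8. Pdyn, which encodes the dynorphins, ranged from 234.7 through 349.3 to 470.4 (SD 0.25). Pnoc, the nociceptin precursor, ranged from 51.9 through 75.5 to 90.1 (SD 0.21), and 71.1% of its variance was of the size that counting alone gives. Spread beyond counting was found in 8 of the 9 genes, with Pnoc the exception (adjusted p = 0.0755, chi-square test of dispersion), which is near the background of 89.8% of all genes tested.

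**Figure D2:**
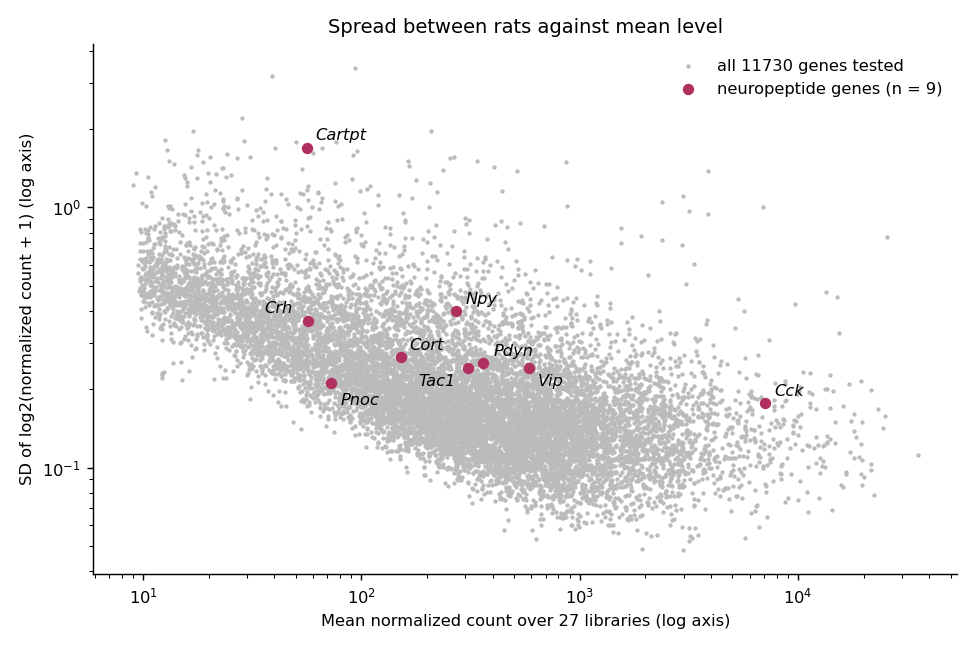
SD of log2(normalized count + 1) between rats (y axis, log axis) against the mean normalized count over 27 libraries (x axis, log axis), with 1 grey point per gene tested and the 9 neuropeptide genes in red. Cartpt, at an SD of 1.70, lies above the other 8, which lie between 0.18 and 0.40.

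Between the blocks none of the 9 neuropeptide genes passed the test. By edgeR's quasi-likelihood test 0 of 9 had an adjusted p under 0.05, against a background of 18.3% of all genes, and 0 of 9 had an unadjusted p under 0.05. DESeq2 also called 0. The second block minus the first gave a log2 difference of 0.18 (SE 0.14) for Npy and -0.14 (SE 0.10) for Cort, with adjusted p from 0.31 for Tac1 to 0.87 for Pnoc over the 9 genes. Tac1 had a median of 312.4 normalized counts (242.1 to 409.8) in the first block and 266.0 (246.2 to 474.5) in the second. The ranges overlapped, and library 51 held the highest level of all. Without that library Tac1 was lower in the second block (log2 difference -0.23, edgeR adjusted p = 0.0241).

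Among other genes of peptide signalling, 8 of 53 tested differed between the blocks, a share no higher than the 18.3% of all genes. Of 40 further neuropeptide precursors, 16 could be tested, 21 had a mean count under 10, Ucn3 and Spx were at 0 and Nms had no row. The second block was higher in Npb (log2 difference 0.62, SE 0.15) and Nppa (0.55, SE 0.15) and lower in Grp (-0.49, SE 0.10), the gastrin-releasing peptide gene. Of 21 tested genes of peptide processing and dense core vesicles, 3 were higher, namely Pcsk1n (0.33), which encodes an inhibitor of the prohormone convertase PCSK1, Vgf (0.27) and Ptprn (0.20). Furin, a proprotein convertase, was lower (-0.26). Of 16 tested receptors of the peptides, Cckbr, the main cholecystokinin receptor of the brain, was the 1 that passed (0.30, SE 0.06, edgeR adjusted p = 0.0012). Its ligand gene Cck did not pass (0.08, SE 0.07).

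Cck, Cort and Crh followed each other across rats. Over the 36 pairs of the 9 counted genes the median rho was 0.187, and 27 pairs were positive, beside a median of -0.0045 over all pairs of the 11730 genes. Cort and Crh had a rho of 0.620 (Pearson's r 0.58), Cck and Cort 0.620 (r 0.61), and Cck and Crh 0.543 (r 0.53). In 8 of the 36 pairs the two-sided permutation p of rho, not adjusted, was under 0.05 (p = 0.00075, 0.00054 and 0.0040 in these 3, n = 27, 100000 permutations). Without the 2 libraries farthest from the median of the first gene, r was 0.59, 0.55 and 0.52. In the models described next, however, leaving out 2 such libraries ended the call of every pair.

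Each gene was also used as the covariate of a model over all other genes. Per SD of Cck, Cort rose by 0.16 on the log2 scale (SE 0.04, edgeR adjusted p = 0.0122) and Crh by 0.19 (SE 0.06, adjusted p = 0.0339). Thus 2 of 8 other neuropeptide genes passed, against 13.2% of all genes (6.06% higher, as both were). Per SD of Crh, Cort rose by 0.16 (SE 0.04, adjusted p = 0.0408), 1 of 8 against 3.11% (1.96% higher). In the reverse direction none of the 3 pairs passed. Cck had an adjusted p of 0.0544 and Crh of 0.0805 per SD of Cort, where 0.358% of all genes followed (0.35% higher). Cck had 0.0594 per SD of Crh. The unadjusted edgeR p was similar in both directions, 0.00055 and 0.00030 for Cck with Cort. For Cck with Crh it was 0.0034 and 0.0023, and for Crh with Cort 0.00081 and 0.00087. The adjusted p also depends on how many other genes pass in a model, so these calls give the relations no direction. No pair was called in both directions in these edgeR models. With the block as a term Cck and Crh were (adjusted p = 0.0080 and 0.0496), as they were without libraries 12 and 20 (0.0368 and 0.0489). In the models as first described 8 pairs had an unadjusted p under 0.05 in both directions, and DESeq2's Wald test called Cck with Cort and Cck with Crh. The calls in single directions were lost without the 2 libraries farthest from the median of the covariate gene. The edgeR adjusted p was then 0.0927 for Cort and 0.109 for Crh in the Cck model, where the calls over all genes fell from 1554 to 172, and 0.0625 for Cort in the Crh model. The slopes were then 0.17 and 0.22 per SD of Cck and 0.17 per SD of Crh, no smaller than with all 27 libraries. With the block as a term Cort in the Crh model did not pass either (adjusted p = 0.0674), and the Crh model called 108 genes in place of 365. The Cort model called 42 genes, while DESeq2 called 257. It called 0 without libraries 12 and 20, with the block as a term or without the filter on low counts. At an unadjusted edgeR p under 0.05 these gave 1769, 1659 and 2125 genes. Without the 2 libraries farthest in Cort the edgeR model also called 0, with 699 at an unadjusted p under 0.05.

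Leaving out 1 library at a time, Cort kept passing in the Cck model (highest adjusted p 0.0431, without library 3). Crh in the Cck model no longer passed without library 3, 18 or 54 (highest adjusted p 0.0970), and Cort in the Crh model no longer passed without any of 10 libraries, namely 3, 9, 15, 18, 22, 35, 42, 51, 52 and 54 (highest adjusted p 0.124, without library 3).

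Within the blocks these 3 correlations kept their sign. For Cck with Cort rho was 0.624 in the first block and 0.755 in the second, for Cck with Crh 0.553 and 0.736, and for Cort with Crh 0.515 and 0.609. Npy did not keep 1 sign, since its rho with Cck was -0.097 in the first block and 0.727 in the second. Of the 36 pairs, 22 had the same sign in both blocks, and no difference between blocks passed the interaction test (lowest edgeR adjusted p 0.145).

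**Figure D3:**
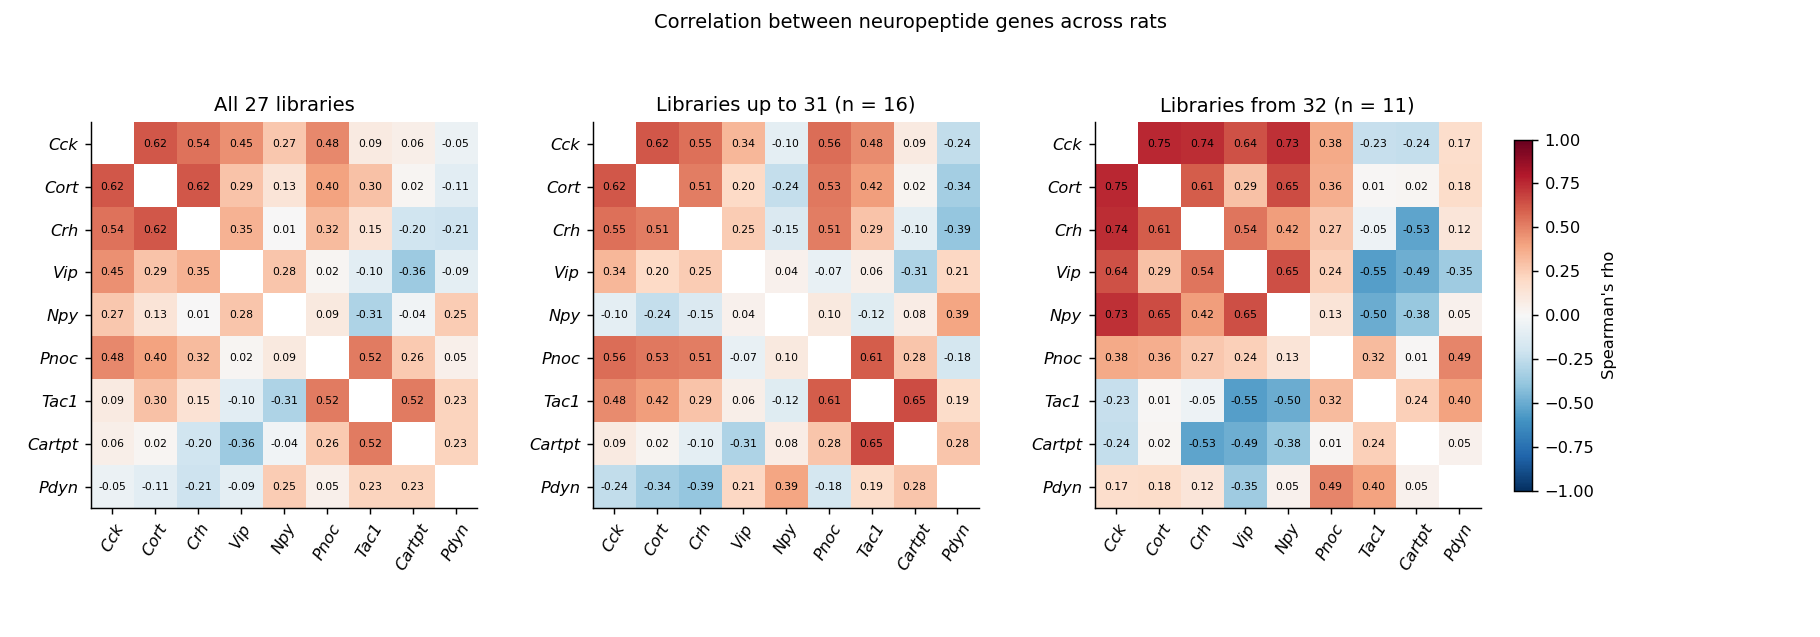
Spearman's rho between the 9 counted neuropeptide genes (both axes) over all 27 libraries, the 16 up to 31 and the 11 from 32, from -1 (blue) to 1 (red). Cck, Cort and Crh form the red corner in all 3 panels, and Npy joins it in the right panel, where its rho with Cck is 0.73.

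Cartpt and Tac1 formed a separate pair. Their rho was 0.516 (r 0.59, permutation p of rho 0.0064), with 0.653 in the first block and 0.236 in the second. Per SD of Cartpt, Tac1 rose by 0.15 (SE 0.04, edgeR adjusted p = 0.0349), 1 of 8 against 2.08% of all genes (1.01% higher). Per SD of Tac1, Cartpt had a log2 slope of 0.89 (SE 0.20, adjusted p = 0.131). The unadjusted edgeR p was 0.00036 for Tac1 in the Cartpt model and 0.00013 for Cartpt in the Tac1 model. Of all genes 0.00853%, 1 gene, followed Tac1. That gene was Nts, the neurotensin gene, at 0.60 per SD of Tac1 (SE 0.10, adjusted p = 0.0341). The call of Tac1 in the Cartpt model was lost without any of 6 libraries, namely 3, 12, 19, 28, 43 and 51 (highest adjusted p 0.0778, without library 51), and without libraries 12 and 20 together (0.0543) or the 2 libraries farthest in Cartpt (0.0754). Library 51 was the highest in both genes and in the striatal projection neuron score. In the second block, which holds this library, Tac1 had a rho of 0.782 and Cartpt of 0.473 with that score, and in the first block -0.309 and -0.368. The part of striatal tissue in this pair was not tested.

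**Figure D4:**
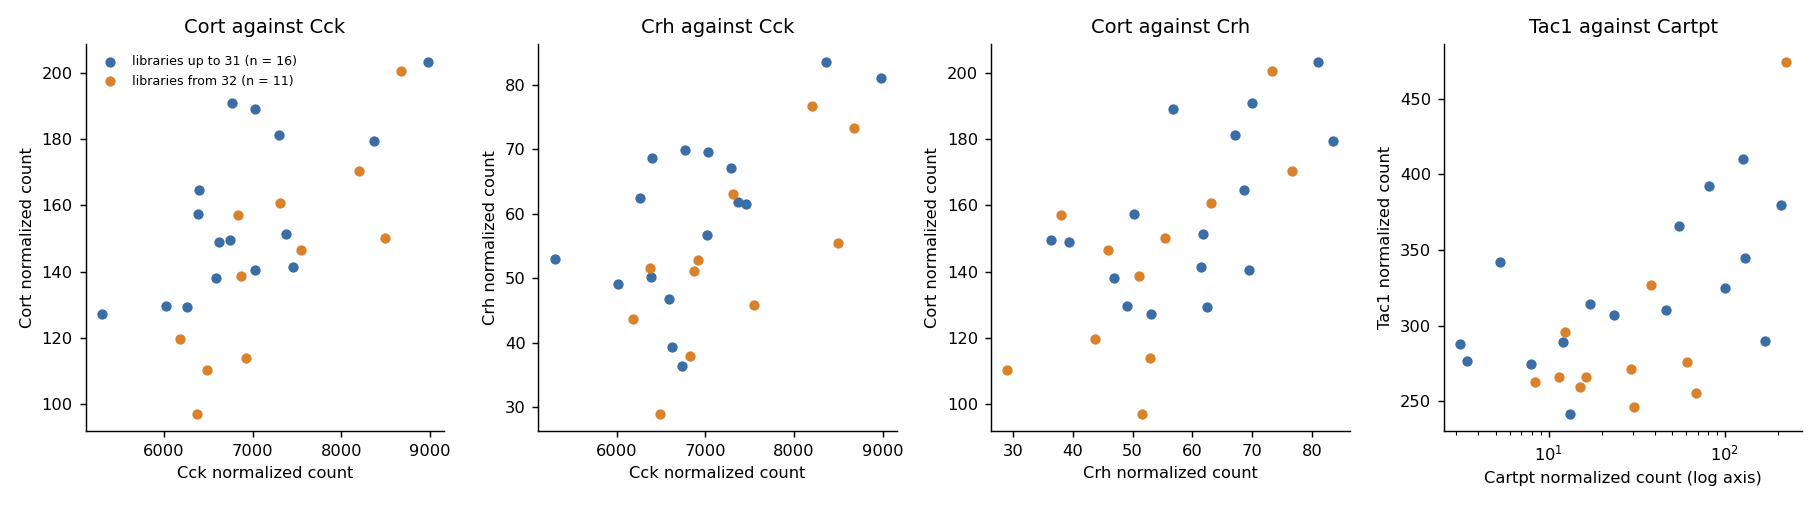
Normalized counts of 4 pairs of neuropeptide genes, 1 point per library, blue for libraries up to 31 and orange from 32. The Cartpt axis is a log axis. Cort and Crh climb with Cck (rho 0.620 and 0.543), and library 51 is the point at the upper right of the Tac1 panel.

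Tac1 and Pnoc had a rho of 0.521 (r 0.48), Cck and Pnoc 0.481 and Cck and Vip 0.454, and none of them passed in either model. In the 2 blocks these were 0.609 and 0.318, 0.559 and 0.382, and 0.335 and 0.636. Vip did pass in the Cck model with the block as a term (edgeR adjusted p = 0.0284), without libraries 12 and 20 (0.0434) and by DESeq2's Wald test (0.0355). The lowest rho was that of Vip with Cartpt (-0.363, with -0.309 and -0.491 in the blocks). The highest rho of Pdyn was 0.255, with Npy (0.391 and 0.045 in the blocks). No gene followed Npy, Pdyn or Pnoc at an edgeR adjusted p under 0.05 (background 0.0% for each). At an unadjusted edgeR p under 0.05 there were 314, 563 and 602 genes. For Pnoc 71.1% of the variance was of the size of counting noise, against 5.61% for Npy and 10.1% for Pdyn. Its model can therefore show little either way. Without the filter 1 gene followed Pdyn, and DESeq2's Wald test called 3.

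Of the other peptide precursors, Nts moved with Tac1 and Cartpt, and less stably with Vip. Its level ranged from 1.31 through 9.81 to 57.0 normalized counts. It rose by 0.60 per SD of Tac1 and by 0.62 per SD of Cartpt (SE 0.13, edgeR adjusted p = 0.0150), and it fell by 0.56 per SD of Vip (SE 0.13, an adjusted p just under the threshold), where 0.392% of all genes followed Vip. Without libraries 12 and 20 the fall with Vip did not pass (adjusted p = 0.0783), and 2 genes followed Vip in place of 46. Nor did it pass with DESeq2 size factors (edgeR adjusted p = 0.0528), without the filter (0.0549) or with the block as a term (0.0503). With the 2 farthest libraries of each model left out, the slope of Nts was 0.40 per SD of Tac1 (edgeR adjusted p = 0.116), 0.39 per SD of Cartpt (0.0944) and -0.30 per SD of Vip (0.610). These 3 models share the same 27 libraries. Tac3, the neurokinin B gene, rose with Cck (0.15, SE 0.03), and Adm, the adrenomedullin gene, fell with Crh (-0.44, SE 0.11). Each was 1 of 16 tested precursors. Of all genes 6.06% were higher with Cck, so Tac3 is near that share, and 1.15% were lower with Crh.

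Of 21 tested genes of peptide processing, 3 passed with Cck, 1 higher and 2 lower, near the 13.2% of all genes (6.06% higher and 7.19% lower). Scg5, which encodes the PCSK2 chaperone 7B2, rose with Cck (0.07 per SD, SE 0.02) and with Crh (0.09, SE 0.02). Cpd, a carboxypeptidase gene, and Cadps, which encodes a priming factor of dense core vesicles, fell with Cck (-0.17 and -0.16), Cadps not without libraries 12 and 20 (edgeR adjusted p = 0.0765). Without the 2 libraries farthest in Cck none of these 3 genes passed in the Cck model (edgeR adjusted p = 0.252 for Scg5, 0.104 for Cpd and 0.137 for Cadps), while Scg5 in the Crh model passed without the 2 farthest in Crh (0.0150). With Cartpt 3 fell and none rose, namely the prohormone convertases Pcsk1 (-0.16) and Pcsk2 (-0.12) and the vesicle membrane protein gene Ptprn2 (-0.09), beside 1.07% of all genes lower. Without libraries 12 and 20 Ptprn2 did not pass (0.0586), and without the 2 libraries farthest in Cartpt Pcsk1 did not (0.0542). Of 16 receptors tested, the somatostatin receptor genes Sstr4 and Sstr1 fell, Sstr4 with Cck (-0.14) and Sstr1 with Cartpt (-0.12), each 1 of 16 beside 7.19% and 1.07% of all genes lower. Neither passed without the 2 libraries farthest in the covariate gene (edgeR adjusted p = 0.117 for Sstr4 and 0.0510 for Sstr1).

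The genes most like each neuropeptide gene were taken as the 5 with the highest rho over the 27 libraries. Cartpt was followed most closely by Lgals3bp (rho 0.839), Nnat (0.835), Zic4 (0.788), Prr22 (0.772) and Cpne7 (0.764), all with an edgeR adjusted p of at most 0.0105. Zic4, a zinc finger transcription factor gene, ranged from 16.8 to 80.2 normalized counts and rose by 0.49 per SD of Cartpt (SE 0.07), and Nnat, the imprinted neuronatin gene, ranged from 2336 to 4561 and rose by 0.21 (SE 0.03). Within the blocks the rho of Cartpt with Lgals3bp was 0.926 and 0.627, and with Nnat 0.856 and 0.609. Both were among the 2 most alike after the mean of each block was taken off.

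Cck was followed most closely by Map1lc3a (rho 0.856), which encodes the autophagy protein LC3A, then Ndufa11, Lin7b, Arf5 and Prelid1 (0.811 to 0.817). Cort was followed by Mrpl41 (0.808), Cox4i1, Phb1, Bok and Pvalb (0.740), and Crh by Timm8b (0.794), Rer1, Cfl1, Cox7b and Uqcr11 (0.747). Pvalb, the parvalbumin gene of basket interneurons, rose by 0.17 per SD of Cort (SE 0.03), 0.15 per SD of Cck (SE 0.04) and 0.16 per SD of Crh (SE 0.04). With the block as a term Pvalb passed in the Cck model (edgeR adjusted p = 0.0011; without the 2 libraries farthest in Cck it did not, 0.160) and not in those of Cort (0.0925) and Crh (0.0517), and in the Cort model it passed neither without libraries 12 and 20 (0.0844) nor without the filter (0.0653). None of the 5 genes most like Cort passed under these 3 alternatives, since the Cort model then called no gene. Without the 2 libraries farthest in Cort it called none either. Vip was followed by Homer1 (0.670), Calb1 (0.669), Plaat1, C2h1orf52 and Lrrc57 (0.646), of which 3 rose, Homer1 and Calb1, the calbindin gene, at an edgeR adjusted p of 0.0296 and 0.0247 and Lrrc57 just under the threshold. Without libraries 12 and 20 Calb1 still passed (0.0473), as 1 of the 2 genes that then followed Vip. Without the 2 libraries farthest in Vip it did not (0.149). Of 8 striatal projection neuron markers 2 fell with Vip, among them Adora2a (-0.26, edgeR adjusted p = 0.0296), beside 0.136% of all genes lower. No gene passed as lower without libraries 12 and 20 or without the 2 farthest in Vip. The rho of Vip with the striatal score was -0.433, with -0.085 and -0.873 in the blocks.

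For the remaining 4 genes none of the 5 most alike passed in the edgeR model. Npy was followed by Calr3 (rho 0.737), Alkbh6, Bloc1s4, Slc29a2 and Aarsd1 (0.602). Tac1 was followed by Pklr (0.743), Irf1, Tnfrsf1b, Hmgn1 and Rbm4 (0.652), of which only Pklr stayed among the 10 most alike after the block means were taken off, at rank 3. Tnfrsf1b moved to rank 45, Hmgn1 to 123, Rbm4 to 151 and Irf1 to 273. Pdyn was followed by Plagl1 (0.684), Bhlhe22, Htr2c, Tmem150c and Tmpo (0.653), and Pnoc by Med18 (0.691), Park7, Polr2l and Ppcdc (0.618), among others.

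Since dissected pieces can hold different shares of cells, each neuropeptide gene was set against 11 marker scores. Of 99 relations, 2 passed and 13 had an unadjusted edgeR p under 0.05. With 9 of the scores 0 of 9 neuropeptide genes passed. The share of all genes that followed these was 2.42% for meningeal fibroblasts, 1.76% for oligodendrocytes, 1.31% for astrocytes, 1.29% for deep-layer excitatory neurons and 0.801% for microglia. It was 0.358% for claustrum and layer 6b, 0.247% for endothelial cells, 0.128% for immediate early genes and 0.0512% for striatal projection neurons.

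Cartpt fell by 0.89 per SD of the upper-layer excitatory score (SE 0.25, edgeR adjusted p = 0.00835). This was 1 of 9 neuropeptide genes, against 28.6% of all genes that followed this score. The rho was -0.564, with -0.609 and -0.282 within the blocks, and the call held without any single library (highest adjusted p 0.0297, without library 3). In the Cartpt model 1 of 7 upper-layer markers passed as lower and none as higher, beside 1.07% of all genes lower. Their median slope was -0.09 per SD of Cartpt. The summed level of the upper-layer list ranged from 3922 to 6217 normalized counts.

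Cck fell by 0.08 per SD of the GABAergic interneuron score (SE 0.03, edgeR adjusted p = 0.0485), 1 of 9 against 27.4% of all genes. This call was lost without any of 17 of the 27 libraries (highest adjusted p 0.453, without library 3), and the rho was -0.409 and -0.255 within the blocks. Of 18 counted interneuron markers, 4 fell with Cck, namely Gad2 (-0.30 per SD of Cck), Adarb2 (-0.25), Prox1 (-0.24) and Nos1 (-0.26), and Pvalb rose, beside 7.19% of all genes lower and 6.06% higher. Without libraries 12 and 20 only Gad2 (edgeR adjusted p = 0.0128) and Pvalb (0.0149) of these 5 passed, and without the 2 libraries farthest in Cck none did (adjusted p from 0.0551 for Gad2 to 0.495 for Prox1). Adarb2 did not pass with the block as a term (0.0556) or without the filter (0.0579), and Prox1 did not without the filter (0.0649) or by DESeq2's Wald test (0.0588). Markers of other cells fell with Cck as well, 4 of 10 of deep-layer excitatory neurons, 2 of 7 of claustrum and layer 6b and 2 of 8 of striatal projection neurons. The deep-layer markers were Syt6 (-0.35), Sulf1 (-0.29), Ntsr1 (-0.24) and Tle4 (-0.10), those of claustrum and layer 6b Ccn2 (-0.23) and Gnb4 (-0.22), and the striatal ones Pde10a (-0.21) and Drd1 (-0.16). Without libraries 12 and 20 Tle4 (edgeR adjusted p = 0.0935) and Pde10a (0.0764) did not pass, and with the block as a term Tle4 did not (0.0548), nor without the filter (0.0608). Without the 2 libraries farthest in Cck 4 of these 8 passed, namely Syt6, Sulf1, Ccn2 and Gnb4, and neither striatal marker did (edgeR adjusted p = 0.0668 for Ntsr1, 0.0781 for Tle4, 0.0863 for Drd1 and 0.248 for Pde10a). Of 7 upper-layer excitatory markers, Lamp5 rose with Cck (0.10, edgeR adjusted p = 0.0448) and none passed as lower. Lamp5 also passed with the block as a term (0.0297) and without libraries 12 and 20 (0.0311). Without the 2 libraries farthest in Cck it did not (0.130). The rho of Cck was -0.547 with the deep-layer score and -0.502 with that of claustrum and layer 6b, beside -0.350 with the interneuron score. The summed level of the interneuron list ranged from 5576 to 8131 normalized counts.

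Crh had the lowest rho with a marker score, -0.594 (-0.674 and -0.455 within the blocks) with that of meningeal fibroblasts, whose summed level ranged from 368.6 to 7371 normalized counts. Per SD of this score Crh had a log2 slope of -0.21 (SE 0.06, edgeR adjusted p = 0.0596, 0 of 9 neuropeptide genes against 2.42% of all genes), and with the block as a term the adjusted p was 0.0343. In the Crh model 3 of 9 meningeal markers fell, Slc22a6 (-0.80), Slc6a13 (-0.65) and Aldh1a2 (-0.52), beside 1.15% of all genes lower. Slc22a6 did not pass with the block as a term (edgeR adjusted p = 0.0517) or without the filter (0.0518). Without the 2 libraries farthest in Crh only Aldh1a2 of these 3 passed (edgeR adjusted p = 0.0419, with 0.0716 for Slc22a6 and 0.0585 for Slc6a13). The part of the meninges in the differences of Crh was not tested.

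**Figure D5:**
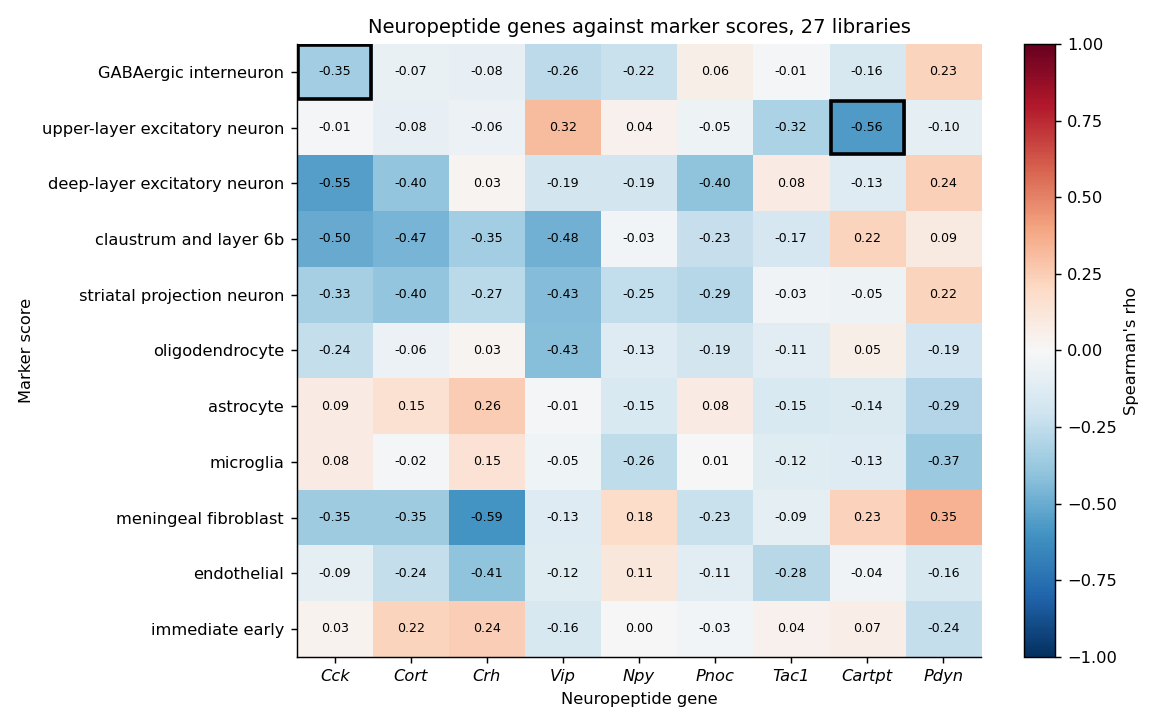
Spearman's rho over 27 libraries between the 9 neuropeptide genes (x axis) and 11 marker scores (y axis), from -1 (blue) to 1 (red). The 2 boxed cells, Cck with the interneuron score (-0.35) and Cartpt with the upper-layer score (-0.56), passed the edgeR test.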

How the data were processed

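RNA of 27 mPFC samples, 1 per rat, was sequenced as single reads. The authors deposited raw counts of reads per gene, without normalization. The submitters' processing notes name Trimmomatic, STAR and HTSeq, and the genome build and strand setting are not given in the sources used here. The paper and the labels differ on the library kit and the section taken. A gene with more than 1 locus is spread over rows of its own (436 rows), and its counts are uncertain, as are those of near-identical or overlapping genes. Symbols came from RefSeq (GRCr8) for 27825 of 36865 rows, holding 99.5% of counts.

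Counts were normalized by DESeq2 (1.42.0) size factors, and log values are log2(normalized count + 1). Tests covered the genes whose mean count reached 10. Blocks, single genes and marker scores (z scores as continuous covariates, 1 fit each) were tested with edgeR's (4.0.16) quasi-likelihood test with TMM scaling, and adjusted p-values are Benjamini-Hochberg values over all genes tested, with a threshold of 0.05. Spread was tested against a Poisson distribution. Permutation tests were two-sided with 100000 permutations. Counting noise covers counting error only, since reads without molecular identifiers are not independent molecules. On simulated counts of 11730 genes, 200 of them changed by 0.5 on the log2 scale, the covariate fit recovered 200 with 15 false calls and the block fit 185 with 9.

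The 10 genes and all lists were chosen with earlier results of these data known. Genes named besides them are the 5 with the highest rho to each, the list genes that passed in the block test and, from the lists, genes that passed in a model of a neuropeptide gene. The last kind was chosen after their values were seen, except as a check of a marker score. A few results that these rules would name are not reported here. Alternatives were DESeq2 size factors in edgeR, no filter, DESeq2's Wald test, a block term, a pseudocount of 0.1, TMM or total-count scaling of the spread, and leaving out libraries. Leaving out single libraries, and libraries 12 and 20 from pairs and scores, was added after seeing the data. Software was R 4.3.3 and Python 3.11.15 with scipy 1.17.1.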

Additional observations from a re-analysis of the deposited data

Results flagged for a closer look

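Tac1 followed the GABAergic interneuron score differently in the 2 blocks of libraries. The log2 change per SD of the score was 0.37 higher in the libraries from 32 than in those up to 31 (SE 0.07, edgeR interaction test, adjusted p = 0.0418), 1 of 45 genes of 11730 for which this difference passed. Its rho with the score was -0.412 in the first block and 0.327 in the second, and over all 27 libraries it was -0.013. Library 51, the highest in Tac1 and in this score, lies in the second block, and its part in this difference was not tested.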

How the results depend on the processing

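Spread beyond counting was found in 8 of 9 neuropeptide genes under every scaling and without the filter. The block test gave 0 of 9 under DESeq2 size factors, no filter, DESeq2's Wald test and without libraries 12 and 20, and from 0 to 1 when single libraries were left out, the 1 being Tac1 without library 51. The number of pairs called in both directions rose from 0 to 2 with DESeq2's Wald test (Cck with Cort and with Crh), and to 1 with the block as a term and to 1 without libraries 12 and 20 (Cck with Crh in both), while without the 2 libraries farthest in the covariate gene no direction of any pair passed. The marker relations that passed were 2 in the main setting, 1 without the filter (Cartpt with the upper-layer score), 3 with DESeq2's Wald test and 4 with the block as a term, which adds Crh with the meningeal score and Cck with the claustrum and layer 6b score. Without libraries 12 and 20 there were 2, Cartpt and Tac1 with the upper-layer score, and Cck with the interneuron score no longer passed (edgeR adjusted p = 0.0854). The causes were not tested. No paired analysis was possible because the rats form 1 group and no library number occurs in 2 groups. Genes under about 10 reads per library, such as Cartpt in its lowest libraries, are limited by counting error.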

Other observations

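Counts of 3 gene families were taken after the values of the most alike genes had been seen, so they describe these libraries and were not tested as sets. Of 73 counted nuclear genes for subunits of oxidative phosphorylation (symbols beginning with Nduf, Cox4 to Cox8, Uqcr or Atp5), 43 rose with Cck and none fell, beside 6.06% of all genes higher. With Crh 34 of the 73 rose (1.96% of all genes higher), and with Cort 8 rose (0.35%). These calls depend on the setting. The Cort model called no gene without libraries 12 and 20, with the block as a term or without the filter. Nor did it without the 2 libraries farthest in Cort. With the block as a term the genes higher with Crh fell from 230 to 55. Without the 2 libraries farthest in Cck the genes higher with Cck fell from 711 to 104. How many of the 73 were among these was not counted. With Npy, Vip, Tac1, Pdyn and Pnoc none rose or fell, and with Cartpt 1 fell. The median log2 slope of the 73 genes was 0.09 per SD of Cck, 0.09 per SD of Crh and 0.08 per SD of Cort, with the median over all genes at 0.00 in each. Of 76 counted cytosolic ribosomal protein genes, which have many processed copies, 22 rose with Cck, 1 with Cort and none with Crh.

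Of the 5 Zic genes counted, 2 rose with Cartpt (1.01% of all genes higher) and 2 fell with Crh (1.15% lower).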
